A study of Homo sapiens with 4 samples.

Results

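NGFR, NTRK2, NTRK3, SORT1 and BDNF, 5 of the 20812 genes in the count tables, were followed across the 4 groups of an experiment on HCT116 cells, a human colon cancer line. They were taken by gene symbol, and they comprise the p75 neurotrophin receptor, its co-receptors and 1 ligand. NGFR was chosen by its measured counts, which had been seen to stand out in 1 library, so its levels are given as a description, with no test. The groups were the IDO1 line with 1 mM indole, the IDO1 line with DMF, wild type cells with 1 mM indole and wild type cells with DMF, each treated for 24 h. The IDO1 line overexpresses human IDO1, the enzyme that opens the indole ring of tryptophan in the first step towards kynurenine, and DMF is a solvent. The labels do not say how IDO1 was introduced, whether the IDO1 line is a single clone, or whether wild type cells carried an empty vector. The study asked how messenger RNA levels differed between both lines with and without indole. The design text speaks of 2 replicates each, and the count tables used here hold 1 column for each group, so no difference between a pair of groups has a replicate check.

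Neurotrophins are secreted growth factors that keep neurons alive and shape their connections, and each is made as a longer proneurotrophin that proteases cut to the mature form. Mature ligands signal through the Trk receptor tyrosine kinases, among them BDNF through TrkB (NTRK2) and neurotrophin-3 chiefly through TrkC (NTRK3). The p75 receptor, encoded by NGFR, has no kinase domain and belongs to the tumour necrosis factor receptor superfamily. It binds all neurotrophins, joins with Trk receptors, and with sortilin (SORT1) forms a receptor for proneurotrophins that can lead to cell death in neurons. Outside the nervous system p75 is known from neural crest derivatives and melanoma, and in normal gut it is prominent in enteric nerves and glia rather than in the epithelium.

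The libraries held 18283862 to 22736172 reads on targets, each a single amplicon per gene, and 14892 to 15505 targets had a read. The IDO1 line had 2440 IDO1 reads under indole and 3451 under DMF, against 2 under indole and 0 under DMF in wild type cells, which follows the labels. Levels are given below as CPM, reads per 1000000 reads of the library after TMM scaling, with exact (Clopper-Pearson) 95% intervals. These cover counting error only, and no spread among cultures, since each group has 1 library. Reads were counted without molecular identifiers, so copies of the same molecule may be counted repeatedly and the intervals may be too narrow. The library of wild type cells with indole stood apart: on the first principal component, with 73.0% of the variance over 8845 genes, its score was 32.6, while the IDO1 line scored -15.3 under indole and -13.6 under DMF, and wild type cells scored -3.69 under DMF. Of 10 colon epithelial markers, EPCAM, CDH1, KRT8, KRT18 and CDX2 reached 10 CPM in all libraries, while CDX1 and CEACAM5 had no read. The 9 markers of embryonic kidney lines summed to 50.8 CPM in the IDO1 line with indole and 51.9 CPM with DMF, against 1.96 CPM in wild type cells with indole and 1.98 CPM with DMF.

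NGFR was detected in all 4 libraries and was far higher in wild type cells with indole than in any other. Its amplicon (AMPL11016506, Entrez Gene 4804) had 172 reads in the IDO1 line with indole and 265 reads in the IDO1 line with DMF. In wild type cells it had 1679 reads with indole and 329 reads with DMF. Scaled for depth, NGFR was at 8.99 CPM (7.69 to 10.4) in the IDO1 line with indole and at 11.6 CPM (10.3 to 13.1) in the IDO1 line with DMF. It was at 86.8 CPM (82.7 to 91.0) in wild type cells with indole and at 15.5 CPM (13.8 to 17.2) in wild type cells with DMF. The order of levels was therefore wild type with indole, wild type with DMF, the IDO1 line with DMF and the IDO1 line with indole. Wild type with indole lay clear of the rest, whereas the counting intervals of the lowest pair, the IDO1 line with and without indole, overlapped at their edges. In a bulk library, a change in the number of NGFR-bearing cells and a change in NGFR RNA per cell cannot be told apart.

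**Figure D1:**
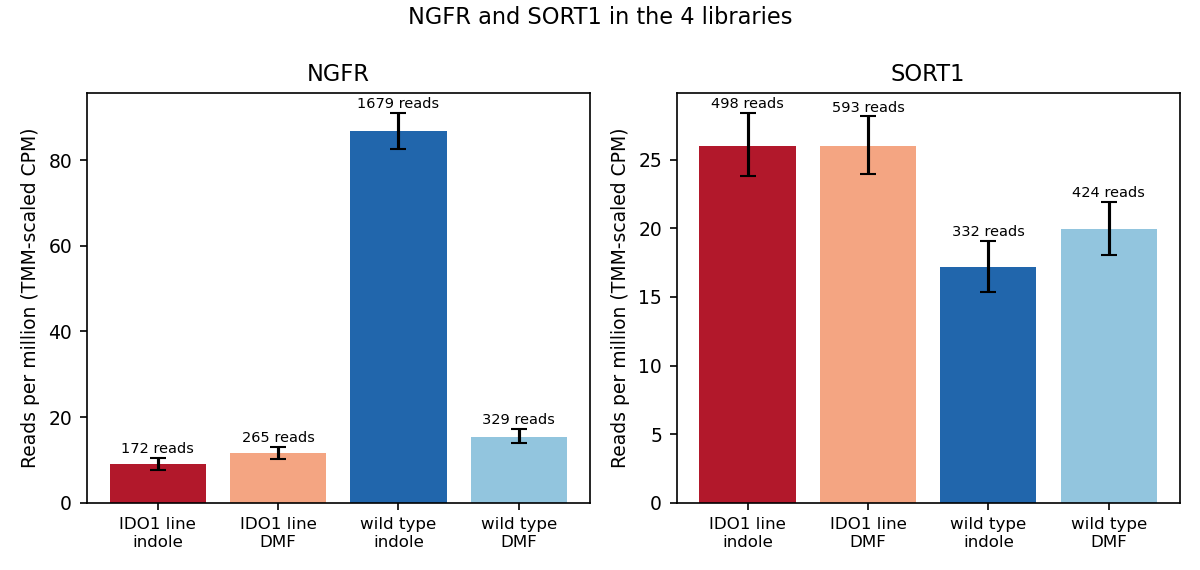
Levels of NGFR (left) and SORT1 (right) in the 4 libraries, as bars of TMM-scaled CPM from 0, with error bars for the exact 95% counting interval and the read count above each bar. NGFR reached 86.8 CPM in wild type cells with indole and 8.99 to 15.5 CPM in the other libraries, and SORT1 lay between 17.2 and 26.0 CPM.

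NGFR was, in wild type cells, 5.61-fold higher with indole than with DMF (4.98 to 6.33), a log2 ratio of 2.49. Among genes that reached 10 CPM in either library, a ratio of 2 or more in either direction was seen for 252 of 8679 (2.9%), of which 118 were higher and 134 were lower, and NGFR had the 4th highest ratio. With scaling by library totals those counts were 248 higher and 75 lower, the median log2 ratio of all genes was 0.14 instead of -0.04, and NGFR was 6.33-fold higher (5.62 to 7.14). NGFR therefore exceeded the middle of the genes in this pair by more than 2 log2 units under either scaling.

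In the IDO1 line the NGFR ratio lay on the other side of 1. NGFR was 1.29-fold lower with indole than with DMF there (1.06 to 1.58), a log2 ratio of -0.37. In this pair 7 of 8523 genes (0.0821%) were at least 2-fold apart, and NGFR was not among them, though it had the 236th lowest ratio. The log2 ratio with indole in the IDO1 line minus that in wild type cells was -2.86 for NGFR, a difference that could not be tested with 1 library in each group.

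Between the lines, NGFR was lower in IDO1-overexpressing cells under both treatments, and by far more under indole. With DMF the IDO1 line had a 1.33-fold lower NGFR level (1.13 to 1.57), while 38 of 8500 genes (0.447%) were at least 2-fold apart. With indole the NGFR level of the IDO1 line was below that of wild type cells by a factor of 9.65 (interval 8.25 to 11.4). Of 8765 genes in that comparison, 395 (4.51%) passed this 2-fold limit (200 higher, 195 lower in IDO1-overexpressing cells), and the NGFR ratio was the 2nd lowest. Library totals gave 147 higher and 274 lower there, and a 10.2-fold lower NGFR level (8.698 to 11.98). The comparison under indole shares a library with the one of wild type cells with and without indole, so both rest on the same 1679 NGFR reads.

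**Figure D2:**
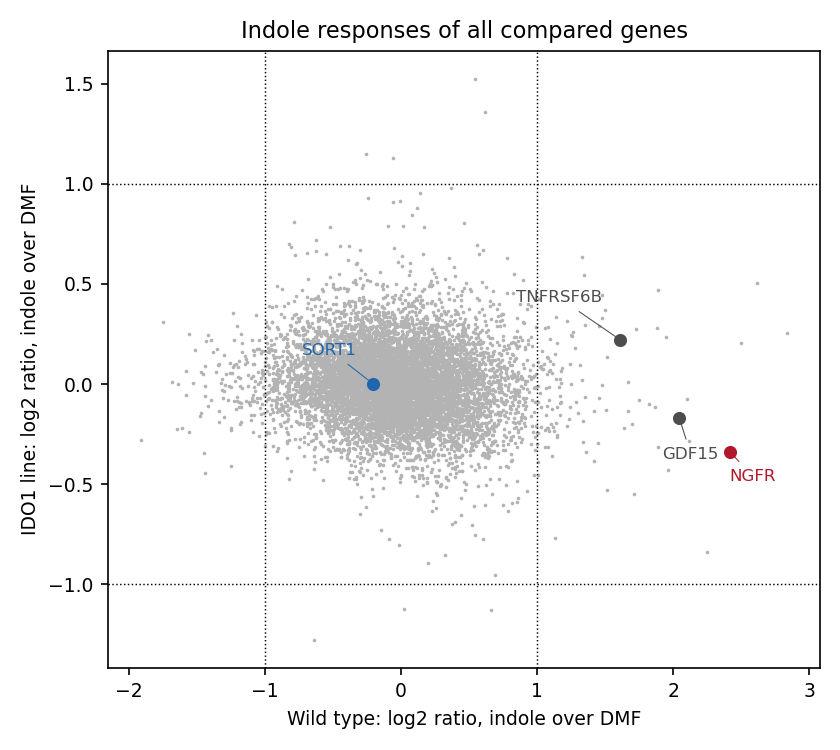
Log2 ratio of indole over DMF in the IDO1 line (vertical axis) against that in wild type cells (horizontal axis), on log2(CPM + 1) values, for all genes that reach 10 CPM in any library, with NGFR, SORT1, TNFRSF6B and GDF15 marked and dotted lines at 2-fold. NGFR sits far to the right and just below 0, and SORT1 sits close to 0 on both axes.

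NGFR was 1 of the 118 genes at least 2-fold higher with indole in wild type cells. Of these genes, 64 had a log2 ratio below 0 in the IDO1 line. Their median there was -0.03, near the -0.01 of all genes in that pair, so a ratio below 0 does not set these genes apart. NGFR's own value in the IDO1 line was lower than that of all but 10 of these genes. The first principal component moved with these genes in the same library, and its part in the NGFR level was not tested.

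SORT1, which encodes sortilin, a sorting receptor of the Golgi and endosomes that pairs with p75 to bind proneurotrophins, was expressed in every library, at levels between 17.2 and 26.0 CPM. Its amplicon (AMPL7304056) had 498 reads under indole and 593 under DMF in the IDO1 line, and 332 under indole and 424 under DMF in wild type cells. Those counts correspond to 26.0 CPM (23.8 to 28.4) in the IDO1 line with indole and 26.0 CPM (23.9 to 28.2) in the IDO1 line with DMF. Wild type cells had 17.2 CPM (15.4 to 19.1) with indole and 19.9 CPM (18.1 to 21.9) with DMF. Both libraries of the IDO1 line were above both wild type libraries, and the intervals of the lines did not overlap, while within each line the indole and DMF intervals did.

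Under DMF, the IDO1 line had 1.30-fold more SORT1 than wild type cells (1.15 to 1.48), and with indole it was 1.52-fold higher (1.32 to 1.75). The IDO1 line gave a ratio of indole over DMF of 1.00 (0.887 to 1.13). Wild type cells gave 1.16-fold less SORT1 with indole (1.00 to 1.35), a difference that the scaling decided: by library totals the ratio of indole over DMF was 0.971 (0.839 to 1.12). In a fit with line and treatment as factors over all 4 libraries, SORT1 had a line effect of 0.48 on the log2 scale (SE 0.234) and an indole effect of -0.10 (SE 0.234), given here as a description without a p-value.

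Set beside each other within a library, the balance of this pair of receptors stood apart in wild type cells with indole. There were 0.345 NGFR reads per SORT1 read (0.289 to 0.412) in the IDO1 line with indole and 0.447 (0.385 to 0.517) in the IDO1 line with DMF. Wild type cells had 5.06 NGFR reads per SORT1 read (4.49 to 5.71) with indole and 0.776 (0.670 to 0.898) with DMF. This ratio needs no scaling between libraries, but the amplicons may amplify unequally, so it can be compared between libraries and does not say which transcript was more abundant.

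The Trk receptors and the ligand among the members were at or near the limit of detection. NTRK2, the TrkB receptor for BDNF, had 1 read in the IDO1 line with indole and 0 in the other 3 libraries. NTRK3, the TrkC receptor for neurotrophin-3, had 1 read in wild type cells with DMF and 0 elsewhere. BDNF had 3 reads in the IDO1 line with DMF, 1 in wild type cells with DMF and 0 in both indole libraries. All these values were at or under a floor of 3 reads per library, which corresponds to 0.132 to 0.157 CPM, so no fold change is given and no difference was detectable at this depth. Each gene is read at 1 amplicon, and these counts say nothing of transcripts that lack it.

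NTF3, the gene of neurotrophin-3, had 0 reads in every library, and NTF4 was not analysed here. NGFR and SORT1 were thus the members measured well above the floor, and the other 3 gave no level that could be ordered among groups.

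Besides the members, 72 genes of neurotrophin signalling were listed by role: ligands, receptors, sortilin relatives, Nogo receptor partners, p75 adaptors, p75 shedding enzymes, proneurotrophin proteases and Trk adaptors. Of these, 69 were in the tables and 58 had a read. Indole against DMF in wild type cells left 1 of the 36 compared (2.78%, against 2.9% of all genes) 2-fold apart, and their median log2 ratio was 0.14, against -0.04 over all genes. In the IDO1 line with indole against DMF, 0 of 34 were, with a median of -0.03 (all genes -0.01). Between the lines with DMF, 0 of 34 were, with a median of -0.02 (all genes -0.01). Between the lines with indole, 2 of 36 were (5.56%, against 4.51% of all genes), with a median of -0.16 (all genes 0.03). These shares were near those of all genes.

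The fit with line and treatment as factors, which has 1 residual degree of freedom, was tested over all genes with edgeR's quasi-likelihood test and Benjamini-Hochberg adjustment. With 1 library in each group, its only residual is the departure of these 4 libraries from additive line and treatment effects. A response to indole that differs between the lines enters that residual. Its p-values therefore do not measure a spread among cultures, and the labels do not say which cultures the libraries came from. For the line effect 322 of 13122 genes (2.45%) passed, and 55 (0.419% of all genes) were lower in the IDO1 line. Of the 51 pathway genes tested, 1 (1.96%) passed, lower in the IDO1 line, and DESeq2 called 0 pathway genes for this effect. For the indole effect 0 of 51 passed, as did 0 of all 13122 genes (0.0%), and DESeq2 also called 0. Of all genes, 448 had an unadjusted p under 0.05 in edgeR. Scaling by library totals instead gave 1 call among the 51, higher with indole, and 6 among all 13122 genes. Genes 2-fold apart with indole numbered 252 of 8679 in wild type cells and 7 of 8523 in the IDO1 line. A response in 1 line only adds to the residual, so this fit cannot decide whether pathway genes had such a response.

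By role, the adaptors that bind the p75 intracellular domain had a median log2 ratio of 0.10 over 10 genes in wild type cells with indole against DMF, where 2.9% of all genes were 2-fold apart and 0 of the adaptors were. The 12 Trk adaptors had a median of 0.13 in that comparison, and again 0 were 2-fold apart. The 3 partners of p75 in the Nogo receptor complex that could be compared had a median of -0.22, with 0 of them 2-fold apart. The 6 p75 shedding genes had a median of 0.20 and 0 were 2-fold apart, and the 5 proteases and protease regulators had a median of 0.41 and 1 (20.0%) was 2-fold apart. On log2(CPM + 1), the scale of these medians, the log2 ratio of NGFR itself was 2.41 (2.49 without the added 1). Under indole, the IDO1 line against wild type cells had medians of 0.01 for the 10 p75 adaptors, -0.16 for the 12 Trk adaptors, 0.09 for the 3 Nogo receptor partners, -0.22 for the 6 shedding genes and -0.68 for the 5 proteases and regulators. There 1 shedding gene (16.7%) and 1 protease or regulator (20.0%) were 2-fold apart, against 4.51% of all genes, and 0 of the adaptors and Nogo receptor partners were. The log2 ratio of NGFR was -3.14 on that scale in that comparison (-3.27 without the added 1).

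**Figure D3:**
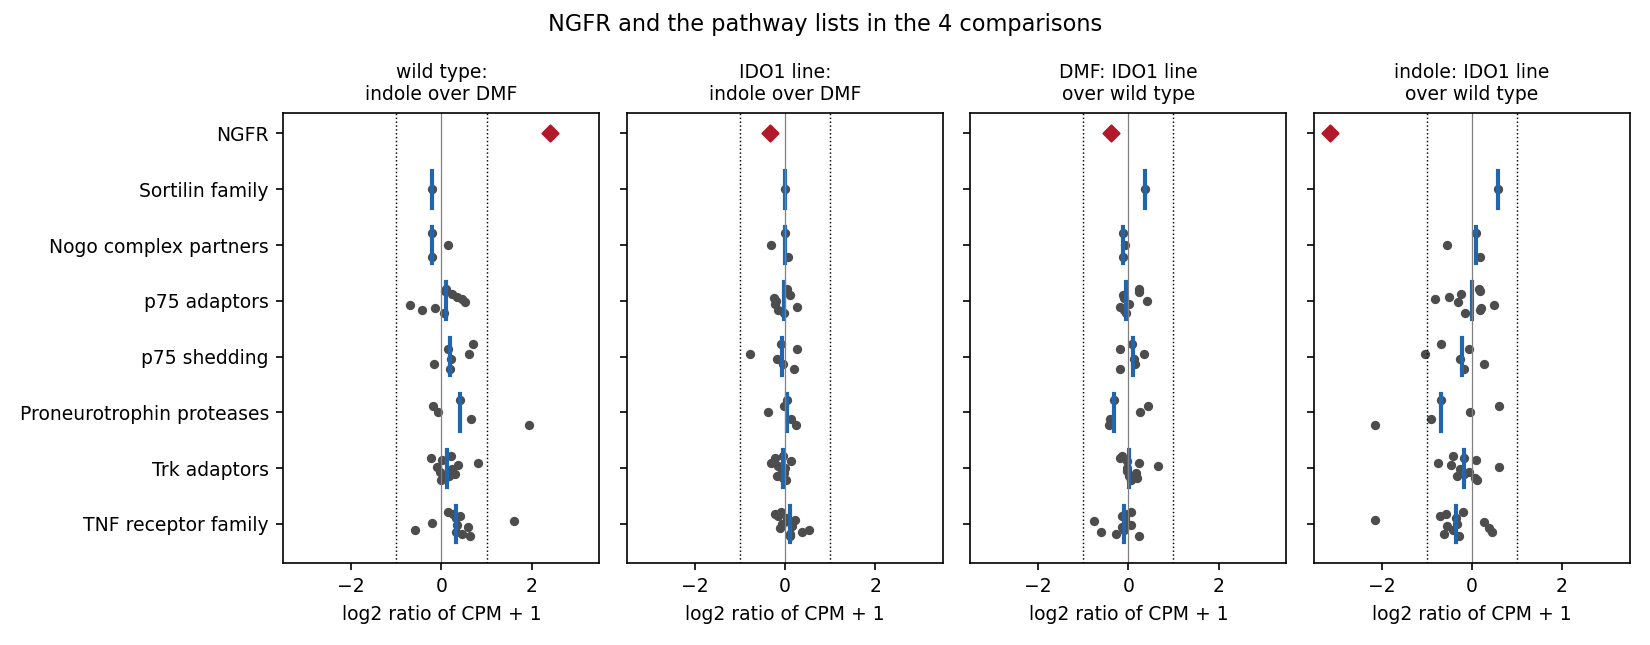
Log2 ratios of (CPM + 1) in the 4 comparisons for NGFR (diamond, top row) and for the genes of the pathway lists and the TNF receptor superfamily, 1 point for each gene with at least 10 CPM in either library, with a blue bar at each list's median and dotted lines at 2-fold. The NGFR ratio lay beyond all plotted genes in wild type cells with indole over DMF, and in the IDO1 line over wild type cells under indole.

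NGFR belongs to the TNF receptor superfamily, whose other members were examined for a like response. For indole against DMF in wild type cells, 12 of these genes could be compared, and 10 of them had a log2 ratio above 0. Such a count can depend on the scaling, since library totals moved the median of all genes from -0.04 to 0.14. The median log2 ratio of the 12 superfamily genes was 0.33. The 1 gene of them (8.33%, against 2.9% of all genes) that was 2-fold apart was TNFRSF6B, which encodes a secreted decoy receptor that binds Fas ligand. TNFRSF6B had 373 reads under indole and 378 under DMF in the IDO1 line, and 1734 under indole and 611 under DMF in wild type cells. It was 3.12-fold higher with indole in wild type cells (2.84 to 3.43) and 1.18-fold higher with indole in the IDO1 line (1.02 to 1.36). Between the lines under indole, 13 superfamily genes had a median log2 ratio of -0.34 (all genes 0.03). Of the 13, TNFRSF6B was again the 1 gene (7.69%, against 4.51% of all genes) 2-fold apart. TNFRSF6B was 1.73-fold lower in the IDO1 line with DMF (1.52 to 1.98) and 4.60-fold lower with indole (4.11 to 5.16). It fell in the IDO1 line in the edgeR fit by 1.51 on the log2 scale (SE 0.270, edgeR adjusted p = 0.000575), as 1 of 18 superfamily genes tested (5.56%, against 0.419% of all genes called in that direction), and DESeq2 called it too.

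The 10 genes whose pattern over the 4 libraries was most like that of NGFR, by the Euclidean distance between log2(CPM + 1) values centred on each gene's mean, were searched for among 8844 genes. The 9 of them described here were GDF15 (distance 0.616), TCP11L2 (0.624), LURAP1L (0.714), TNFRSF6B (0.759), NR4A2 (0.873), SGK2 (0.949), CHAC1 (0.960), SLC43A2 (0.961) and LOC100506123 (0.988). GDF15 encodes a secreted stress-induced member of the TGF-beta family, NR4A2 an orphan nuclear receptor and CHAC1 an enzyme that degrades glutathione. With indole against DMF their levels were 3.12 to 5.78-fold higher in wild type cells, and in the IDO1 line their ratios were 0.493 to 1.18. Under indole they were 4.06 to 6.54-fold lower in IDO1-overexpressing than in wild type cells, a smaller factor than for NGFR in each case. The pattern consists of 4 libraries and is dominated by 1 of them, so it is a description.

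**Figure D4:**
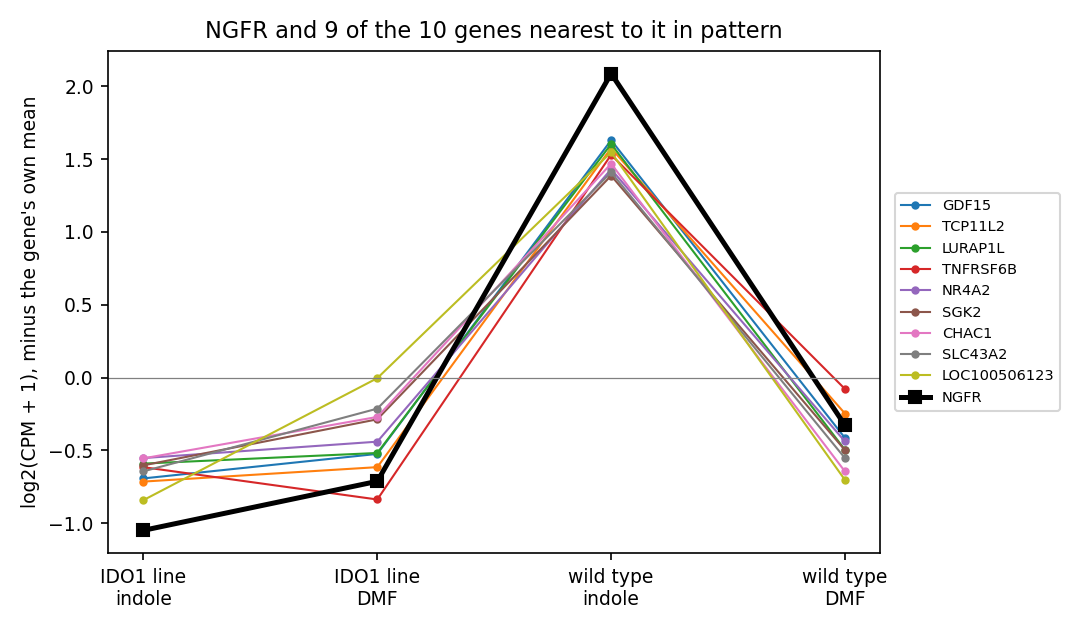
Centred log2(CPM + 1) in the 4 libraries for NGFR (thick line) and 9 of the 10 genes with the most similar pattern (thin lines). All 10 lines peak in wild type cells with indole, and NGFR has the highest peak there and the lowest value in the IDO1 line with indole.

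SORT1 did not resemble NGFR, and its nearest genes were others that were slightly higher in the IDO1 line. They were RPL7L1 (distance 0.0257), AP1S2 (0.0462), which encodes a subunit of the clathrin adaptor AP-1, and DPH3 (0.0498). AP1S2 had a ratio of indole over DMF of 0.879 in wild type cells (0.730 to 1.06) and of 1.04 in the IDO1 line (0.894 to 1.21).

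Genes beside NGFR on its chromosome were compared in the same way. Of the 5 nearest annotated genes on each side, 6 of 10 could be compared and 0 were 2-fold apart in any comparison. Between 0.0821% and 4.51% of all genes were 2-fold apart in these comparisons. A count of 0 among 6 is near those shares and says nothing particular about these neighbours. Their log2 ratios lay between -0.39 and 0.39 in wild type cells with indole against DMF, and between -0.50 and 0.64 in the IDO1 line with indole against wild type cells with indole. Beside SORT1, 5 of 10 neighbours could be compared, and PSRC1 was the 1 gene 2-fold apart. Its log2 ratio was -1.35 in wild type cells with indole against DMF, where 2.9% of all genes were 2-fold apart. It was 1.48 in the IDO1 line against wild type cells under indole, where 4.51% were.

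Cell types known to carry p75 were looked for by their markers. The 8 Schwann cell and neural crest markers summed to 59.3 CPM under indole and 58.9 CPM under DMF in the IDO1 line, and to 86.7 CPM under indole and 61.8 CPM under DMF in wild type cells. The defining genes SOX10 and GFAP had 0 reads in every library, and S100B had at most 1. The largest part of the sum came from ERBB3, a receptor that epithelial cells also carry, at 793 reads under indole and 953 under DMF in the IDO1 line, and 1297 under indole and 977 under DMF in wild type cells. Melanocyte markers summed to 4.91 CPM under indole and 5.43 CPM under DMF in the IDO1 line, and to 4.81 CPM under indole and 5.17 CPM under DMF in wild type cells, with MLANA, TYR and DCT at 0. Neuronal markers summed to 217 CPM under indole and 256 CPM under DMF in the IDO1 line, and to 234 CPM under indole and 271 CPM under DMF in wild type cells. Only 2 of these 11 markers reached 10 CPM in each library, and 3 to 7 had at most 3 reads. Of 5 neuronal markers tested, 2 (40.0%, against 2.45% of all genes) were called in the edgeR line fit, both higher in the IDO1 line, and DESeq2 called 0. They were NEFL, with 19 reads under indole and 22 under DMF in the IDO1 line and 0 under indole and 1 under DMF in wild type cells, and NEFM, with 21 reads under indole and 45 under DMF in the IDO1 line and 0 in both wild type libraries. Both also stand in the embryonic kidney list. The 5 neuronal markers that passed the filter had a median line effect of -0.04 on the log2 scale in the edgeR fit. With low counts kept, the median over 10 markers was 0.44. The direction of this list therefore depended on markers with few reads. The 2 neuronal markers that reached 10 CPM were both lower in the IDO1 line under DMF. Under indole 1 of them was lower and 1 was higher. Fibroblast markers summed to 75.03 CPM under indole and 77.5 CPM under DMF in the IDO1 line, and to 98.6 CPM under indole and 86.5 CPM under DMF in wild type cells. Only 1 of these 8 markers reached 10 CPM in each library, and 5 had at most 3 reads. Of the 9 embryonic kidney markers, 7 (77.8%) were called higher in the IDO1 line in the edgeR fit, against 267 of all 13122 genes. DESeq2 called 2 of these markers higher, against 74 of 16214 genes. These markers moved with the line under both treatments. NGFR and SORT1 also differed between the lines, NGFR by far more with indole than with DMF. The part of the markers in those differences was not tested. The labels do not say whether both lines came from one stock of HCT116 cells, so IDO1 overexpression and any other difference between the lines cannot be told apart in these comparisons.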

How the data were processed

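Total RNA of the 4 groups was read as amplicon libraries with an Ion AmpliSeq whole-transcriptome kit, per the labels' protocols. The deposited counts are whole reads per target, 1 target for each gene, and the submitters' processing notes name build hg19. Aligner and counter are not given in the sources used here. Groups were taken from the labels' genotype and treatment. The members and all lists were chosen with earlier results of these data known.

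Counts were scaled by TMM in edgeR 4.0.16 (R 4.3.3). Folds between 2 libraries are ratios of scaled CPM, with 95% intervals from an exact (Clopper-Pearson) treatment of how the gene's reads divide between them. Genes with at least 10 CPM in either library were counted as 2-fold apart on log2(CPM + 1), also for the ranks and list medians. Additive fits (line and treatment, 4 libraries) used filterByExpr, edgeR's quasi-likelihood test and a Benjamini-Hochberg threshold of 0.05. DESeq2 1.42.0, library totals, median-of-ratios factors, other pseudocounts and other minimum levels were tried as alternatives. Standard errors are the fold change divided by the square root of F.

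Named genes were the members, the other ligands and Trk receptors, the 3 largest 2-fold differences of each list in each comparison, list genes called in a fit, and the 10 genes nearest to NGFR and 3 nearest to SORT1 by distance. ERBB3, NEFL, NEFM and the neighbours were named after their values were seen. Neighbours come from RefSeq GRCh38.p14, so no coordinates are given. NTF4 and LINGO1 are not analysed here. Results for some genes of the lists are not reported here.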

Additional observations from a re-analysis of the deposited data

Results flagged for a closer look

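NGFR was 1.29-fold lower with indole than with DMF in the IDO1 line (1.06 to 1.58) and 5.61-fold higher with indole than with DMF in wild type cells (4.98 to 6.33). It is set apart here because the lines went in opposite directions under the same treatment, by -2.86 on the log2 scale (IDO1 line minus wild type). The difference was not tested, since each group has 1 library. The value in wild type cells rests on the library that stood apart on the first principal component, and there is no other library of that group to set beside it.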

How the results depend on the processing

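NGFR kept its direction in all 20 alternative values and SORT1 in all 20 of its own. A pseudocount cannot reverse a direction, so only the values under other scalings bear on this. For SORT1 in the IDO1 line with indole against DMF, the log2 ratio was between 0.0015 and 0.0041, which is hardly a direction. For NGFR the log2 ratio lay between 2.16 and 2.66 in wild type cells with indole against DMF, between -0.37 and -0.25 in the IDO1 line with indole against DMF, between -0.42 and -0.30 between the lines with DMF, and between -3.35 and -2.71 between the lines with indole. A pseudocount of 5 CPM gave 2.16 in wild type cells and -2.71 between the lines with indole, both outside the counting interval.

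The number of all genes 2-fold apart moved more. In wild type cells with indole against DMF it was 149 with a pseudocount of 5 CPM and 118 with a minimum of 50 CPM. In the IDO1 line it was 14 with a minimum of 1 CPM and 3 with 50 CPM. Between the lines with DMF it was 25 with the pseudocount of 5 CPM, 236 with a minimum of 1 CPM and 12 with 50 CPM, and with indole 240, 756 and 177 in the same order. The line effect had 74 calls with at least 10 CPM in 2 libraries and 86 with DESeq2. The indole effect had 6 calls with library totals, 5 with at least 10 CPM in 2 libraries and 10 when low counts were kept. Each of these settings called 1 neurotrophin pathway gene for the indole effect, against 0 in the main fit.

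No paired analysis was possible because each group has 1 count column and the labels carry no replicate numbers to leave out or to pair. NTRK2, NTRK3 and BDNF were limited by depth.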

Other observations

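Several genes near this pathway differed by less or were too low for the 10 CPM minimum, and were picked after their values were seen. MMP7, a matrix metalloproteinase that cleaves proneurotrophins, had 90 reads under indole and 62 under DMF in the IDO1 line, and 12 under indole and 69 under DMF in wild type cells. MMP7 was 5.23-fold lower with indole than with DMF in wild type cells (2.81 to 10.6), the opposite direction to NGFR. ADAM10, a sheddase of the cell surface, was 1.64-fold higher with indole in wild type cells (1.504 to 1.795), and PLAT, tissue plasminogen activator, was 1.58-fold higher (1.45 to 1.72). RHOA, a GTPase that p75 can activate, was 1.62-fold lower with indole in wild type cells (1.57 to 1.67).

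The GDNF family, another group of neurotrophic factors with their own receptors, had 7 of 9 genes with a read. RET, its receptor tyrosine kinase, had 125 reads under indole and 177 under DMF in the IDO1 line, and 212 under indole and 202 under DMF in wild type cells. GDNF itself had 0 reads in every library.

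The sortilin relative SORL1 had 147 reads under indole and 157 under DMF in the IDO1 line, and 180 under indole and 137 under DMF in wild type cells, while SORCS1 and SORCS3 had 0 reads throughout. NGFRAP1, whose product binds the p75 death domain, had 1414 reads under indole and 1637 under DMF in the IDO1 line, and 1277 under indole and 1300 under DMF in wild type cells. FURIN, a convertase that matures proneurotrophins inside the cell, had 1666 reads under indole and 1930 under DMF in the IDO1 line, and 2712 under indole and 2243 under DMF in wild type cells.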
